A study of Mus musculus with 9 samples.

Results

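The axon guidance ligands and receptors were the protein-coding genes whose symbols begin with the family names of the semaphorins, plexins, Eph receptors, ephrins, Slits, Robos, netrins and Unc5 genes, with the neuropilins Nrp1 and Nrp2. The symbols selected 69 of the 25059 gene identifiers in the deposited tables, of which 21950 are protein-coding. They comprise 20 semaphorins, 9 plexins, 2 neuropilins, 14 Eph receptors, 8 ephrins, 3 Slits, 4 Robo receptors, 3 netrins and 6 genes whose symbols begin with Unc5. The rule for choosing them uses symbols and no measured value, though the families were taken up with earlier results of these data known. Unc50, a membrane protein of the Golgi, and Unc5cl fit the letters of the name but are not netrin receptors. Leaving both out changed none of the counts of called genes given below.

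Expression was measured by RNA-seq in granulosa cells, the somatic cells that line the ovarian follicle and surround the oocyte, collected from ovaries of Kunming mice at postnatal day 21. Follicle growth was started in every mouse with 5 IU of PMSG, a gonadotropin from pregnant mares. Cells were taken 48 h later without hCG (0 h), or at 1 h or 6 h after a dose of 5 IU of hCG, the human chorionic hormone that binds the receptor of luteinizing hormone and triggers ovulation. Each time had 3 libraries, 9 in all. No label says that the 3 libraries came from separate animals or pools, so the spread that p-values rest on is that of the libraries and may be technical. No library taken at a matched hour without hCG was analysed here, so hours after hCG and time of day cannot be told apart.

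Guidance molecules steer growing axons by attraction or repulsion: a ligand on a cell or in the matrix binds a receptor on the axon, and the receptor changes the cytoskeleton through small GTPases. Class 3 semaphorins are secreted and bind neuropilins held in a complex with plexins, whereas most other semaphorins are anchored in the membrane and bind plexins directly. Ephrins and Eph receptor tyrosine kinases signal in both directions between touching cells, Slits bind Robo receptors, and netrins bind Dcc, Neo1 and the Unc5 receptors. Outside the nervous system the same families act in blood vessel growth and in contacts between epithelial cells, and Slits and Robo receptors are known from the fetal ovary and the corpus luteum.

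The deposited values are FPKM, a measure of fragments scaled to transcript length and to library size, and the rows of a gene were summed. Differences are log2 changes of FPKM + 1 with their SE, a scale that understates changes of low genes. They were tested with limma over the 14535 genes that reached 1 FPKM in at least 3 libraries. A gene was called where its p, adjusted by Benjamini-Hochberg over these genes, was below 0.05. The summed FPKM of the libraries lay between 491920 and 570986, and read depth is unknown. All 10 granulosa markers were detected. Their summed level was 12638 to 13392 FPKM at 0 h, 12450 to 17909 FPKM at 1 h and 4605 to 4897 FPKM at 6 h, with 9 of 10 called lower at 6 h against 0 h. Oocyte markers summed to 47.1 to 74.6 FPKM at 0 h, 59.9 to 72.3 FPKM at 1 h and 84.3 to 126 FPKM at 6 h, with 11 of 12 tested called higher at 6 h against 0 h. Endothelial markers summed to 27.5 to 37.5, 32.8 to 35.1 and 37.7 to 50.2 FPKM at the 3 times, with 4 of 11 tested higher at 6 h. Of the 12 listed, Vwf was not tested, at or below 0.138 FPKM in every library. Cdh5 averaged 7.46 FPKM at 0 h and 10.8 FPKM at 6 h, and Kdr 3.91 and 7.12 FPKM. Theca and stroma markers summed to 225 to 343, 295 to 445 and 136 to 164 FPKM, with 4 of 11 tested lower at 6 h. Neuron and Schwann cell markers summed to 41.9 to 56.2, 37.7 to 48.0 and 70.2 to 76.3 FPKM, where Snap25 alone averaged 30.7 FPKM at 6 h and the Schwann cell marker Sox10 averaged 0.0190 FPKM at 6 h. Leukocyte markers had 1 of 7 tested lower at 6 h, erythroid markers 2 of 4 lower and surface epithelium markers 2 of 6 lower. The part of these other cell types in the results below was not tested. In RNA from mixed cells, fewer cells of a type and less RNA per cell cannot be told apart.

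At 6 h, 53 of the 69 guidance genes could be tested, and 18 were called higher and 14 lower than at 0 h. On the scale of log2(FPKM + 1), Robo2, Efnb2, Sema4f and Sema3a had the largest increases, and Plxnc1 and Sema7a, the most abundant receptor and ligand at 0 h, had the largest decreases. The called share was 60.4% of the tested guidance genes, beside 56.6% of all genes tested. Called higher were 34.0% of the guidance genes and 28.8% of all genes, and called lower were 26.4% of the guidance genes and 27.9% of all genes. The median log2 change was -0.03 over the guidance genes and -0.004 over all genes. With FPKM scaled to the mean sum, the split turned to 15 higher and 18 lower among guidance genes, and to 3503 higher and 4714 lower among all genes, against 4180 and 4051 in the analysis reported. With quantile normalization it was 15 higher and 16 lower among guidance genes. The shares reported are near the background, so the counts alone do not set the guidance genes apart. Ligands had 9 higher and 7 lower of 29 tested, and receptors had 9 higher and 7 lower of 23 tested.

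At 1 h, 4 guidance genes were called higher than at 0 h (Epha4, Efnb2, Sema3c and Sema6d) and 1 was called lower (Efna4). That is 9.43% of the 53 tested, beside 15.7% of all genes, of which 9.68% were called higher and 5.98% lower. Epha4 and Efnb2 kept their calls in each of the 18 settings tried, and the other 3 did not. With FPKM scaled to the mean sum, the split at 1 h turned to 2 higher and 5 lower among guidance genes, and to 1002 higher and 2634 lower among all genes, against 1407 and 869 in the analysis reported. Between 6 h and 1 h, 14 guidance genes were called higher and 16 lower at 6 h, which is 56.6% of the tested guidance genes, beside 53.5% of all genes with 26.7% higher and 26.9% lower. The comparisons share libraries and are not independent of each other.

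**Figure D1:**
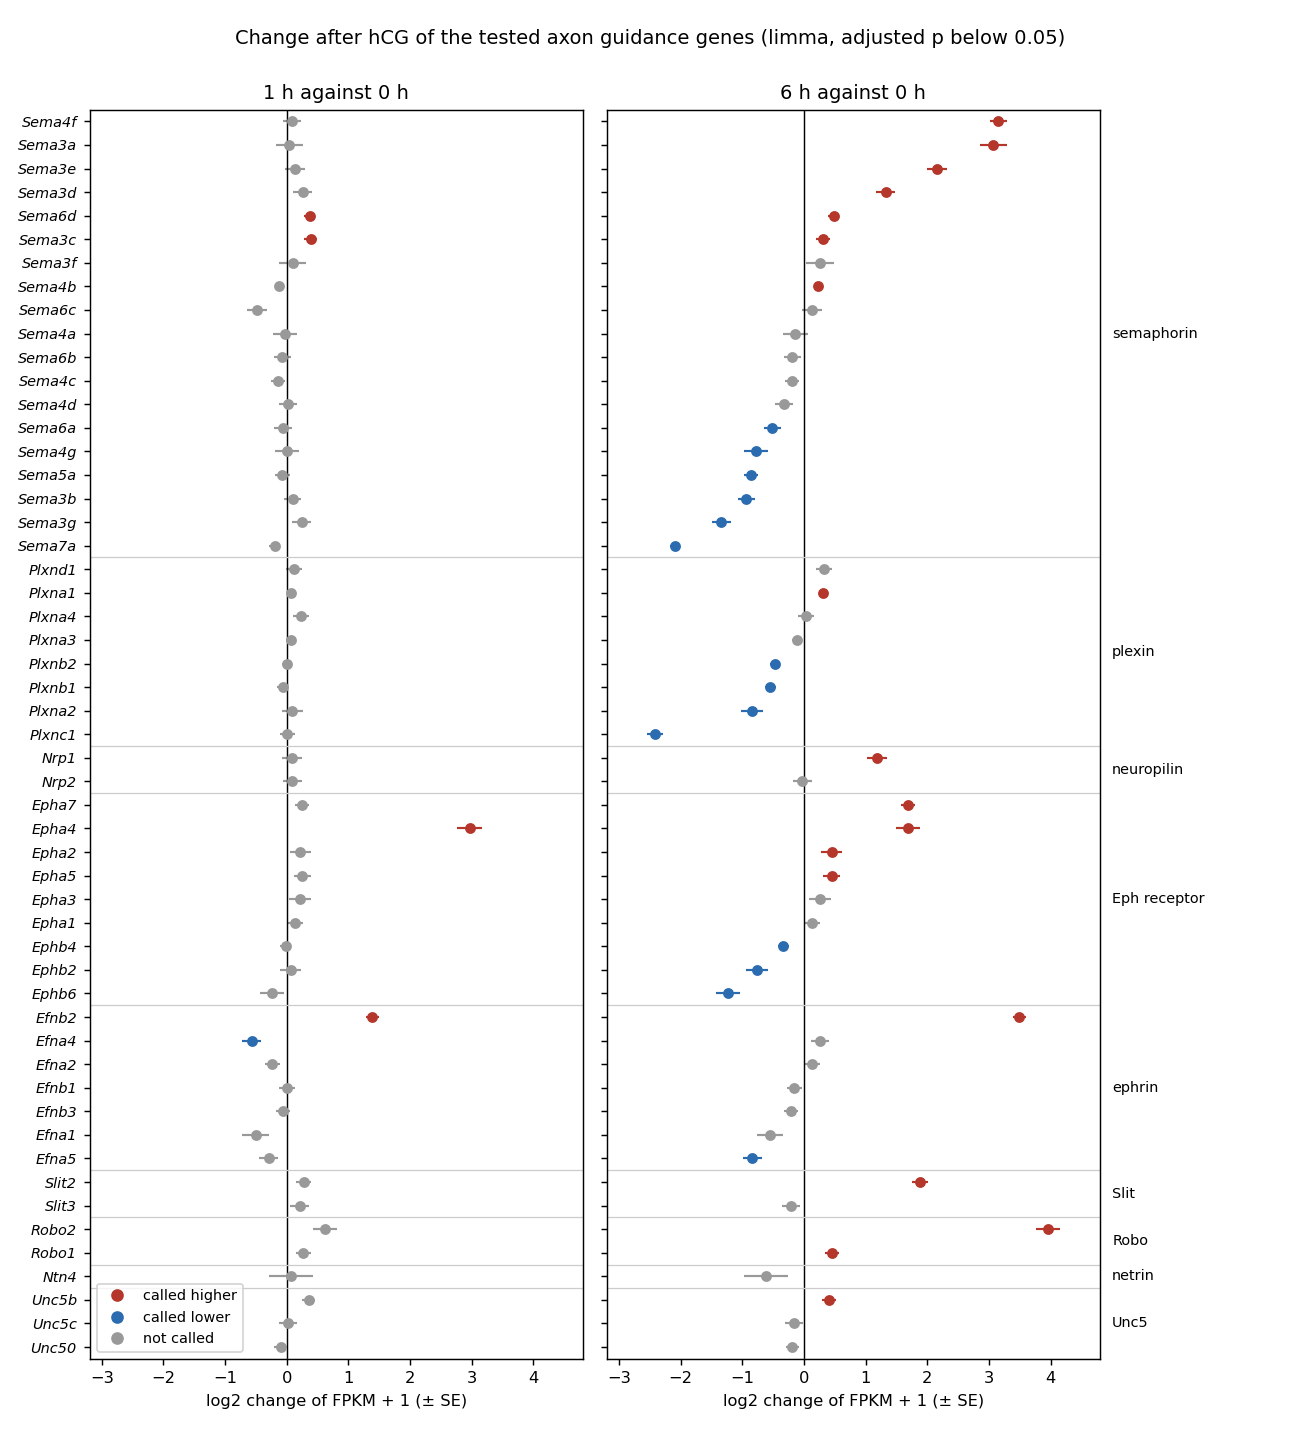
Log2 change of FPKM + 1 with its SE for the 53 tested guidance genes, at 1 h against 0 h (left) and 6 h against 0 h (right), ordered by family and by the change at 6 h. At 1 h 5 genes are called and most points lie near 0, whereas at 6 h 32 are called, with log2 changes from -2.42 (Plxnc1) to 3.95 (Robo2).

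The 7 class 3 semaphorins, the secreted ligands of the neuropilin and plexin complexes, moved in both directions at 6 h, with 4 called higher and 2 lower than at 0 h. Over all genes tested, 28.8% were called higher and 27.9% lower. Sema3a, the prototype of growth cone collapse and a ligand of Nrp1, had 3.51, 3.54 and 3.01 FPKM at 0 h, 4.71, 2.47 and 3.52 FPKM at 1 h, and 31.7, 50.4 and 28.1 FPKM at 6 h. Sema3e, which binds Plxnd1 without a neuropilin, had 0.593, 0.726 and 0.556 FPKM at 0 h, 0.572, 1.18 and 0.661 FPKM at 1 h, and 6.70, 7.12 and 5.13 FPKM at 6 h. Sema3d had 4.90, 6.28 and 3.96 FPKM at 0 h, 6.53, 6.01 and 5.88 FPKM at 1 h, and 14.6, 16.2 and 11.5 FPKM at 6 h. For all 3 genes the libraries at 6 h lay above every library at 0 h and 1 h, and those at 0 h and 1 h overlapped. The log2 change at 6 h against 0 h was 3.07 ± 0.22 for Sema3a (adjusted p 2.83e-06), 2.16 ± 0.16 for Sema3e (3.12e-06) and 1.33 ± 0.15 for Sema3d (6.38e-05).

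Sema3c and Sema3g had the highest levels of the class 3 semaphorins at 0 h and 1 h, and at 6 h Sema3a stood above Sema3g. Sema3c, a ligand needed for the outflow tract of the heart, averaged 75.4 ± 5.05 FPKM at 0 h, 99.4 ± 14.8 FPKM at 1 h and 94 ± 9.28 FPKM at 6 h (SD, n = 3 each). Its calls were weak at 6 h (log2 change 0.31 ± 0.11, adjusted p 0.0347) and at 1 h (0.39 ± 0.11, adjusted p 0.0419), both against 0 h. The call at 6 h was lost on leaving out replicate 1 or replicate 2 of either time, and its adjusted p reached 0.173 under quantile normalization. The call at 1 h was lost in 13 of 18 settings, including each omission of a 0 h library or of 1 h replicate 1 or 3, with an adjusted p up to 0.220. Sema3g had 67.4, 66.4 and 76.9 FPKM at 0 h, 83.7, 69.1 and 99.5 FPKM at 1 h, and 22.7, 26.1 and 33.2 FPKM at 6 h. Every 6 h library of Sema3g lay below every 0 h and 1 h library, with a log2 change at 6 h against 0 h of -1.34 ± 0.15 (adjusted p 5.45e-05). Sema3b also fell at 6 h, to 9.01 ± 1.17 FPKM, against 18.1 ± 1.53 FPKM at 0 h (log2 change -0.93 ± 0.14, adjusted p 0.000285), whereas Sema3f averaged 2.57 ± 0.64 FPKM at 6 h and 2.04 ± 0.87 FPKM at 0 h and was not called. The sum over the 7 genes was 190 ± 23.1 FPKM at 6 h, against 175 ± 7.03 FPKM at 0 h.

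The 4 class 3 semaphorins called higher at 6 h are neighbours in the genome. Sema3d, Sema3a, Sema3e and Sema3c lie in this order on chromosome 5 (mm10, GENCODE annotation), from 12383385 to 17730268, a stretch of 5.35 Mb, all on the plus strand. The stretch held 20 genes of the tables, of which 7 were tested, and 3 of these are no guidance genes. Cacna2d1, a calcium channel subunit, was higher at 6 h against 0 h (log2 change 1.82), as was Hgf, hepatocyte growth factor (0.78), and Pclo, a protein of the presynaptic active zone, was lower (-1.35). The 3 class 3 semaphorins outside this stretch lie on chromosomes 9 (Sema3b and Sema3f) and 14 (Sema3g), and none of them was called higher. The stretch was drawn around the 4 genes called higher, so this contrast follows from that choice. Sema3c, 1 of the 4, lost its call in 8 of 18 settings. The clustering was not tested.

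The bases just before the RefSeq start sites of these 4 neighbours are shown to let a reader set them side by side. Each is the 120 bases upstream of the start on the gene's own strand, 5′ to 3′, from RefSeq (GRCm38.p6), at chr5:12383046-12383165, chr5:13396664-13396783, chr5:14025156-14025275 and chr5:17574696-17574815, all on the plus strand. The start used for Sema3a lies well inside the gene as annotated (13125414 to 13602565). Rows without transcript names cannot be tied to that start. Capitals mark the letters TGTGGT, the core bound by RUNX factors, and TGACG or its reverse complement CGTCA, the core of the cAMP response element.
Sema3d: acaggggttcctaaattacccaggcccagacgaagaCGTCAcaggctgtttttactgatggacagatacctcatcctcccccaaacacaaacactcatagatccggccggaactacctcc
Sema3a: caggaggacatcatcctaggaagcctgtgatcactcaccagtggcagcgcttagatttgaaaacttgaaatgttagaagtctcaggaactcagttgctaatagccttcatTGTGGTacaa
Sema3e: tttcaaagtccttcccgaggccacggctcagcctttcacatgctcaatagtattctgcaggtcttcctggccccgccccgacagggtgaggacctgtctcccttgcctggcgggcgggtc
Sema3c: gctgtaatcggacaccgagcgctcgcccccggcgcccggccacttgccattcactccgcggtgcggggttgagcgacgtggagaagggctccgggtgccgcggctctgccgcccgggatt
The 4 stretches differ in base composition, with a G and C content of 51.7% for Sema3d, 44.2% for Sema3a, 61.7% for Sema3e and 72.5% for Sema3c. They share no searched motif: Sema3a alone holds the RUNX core, 10 bases before the start, and Sema3d alone holds the core of the cAMP response element, 84 bases before the start.

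The remaining semaphorins are anchored in the membrane. Sema4f, a class 4 semaphorin, was the clearest case of a gene near 0 before hCG. The gene lies on chromosome 6 from 82911885 to 82939769 on the minus strand. It had 0.0775, 0.0147 and 0.0192 FPKM at 0 h, 0.171, 0.0686 and 0.0610 FPKM at 1 h, and 6.65, 9.30 and 8.91 FPKM at 6 h. All 3 libraries at 6 h lay far above the rest, with a log2 change against 0 h of 3.15 ± 0.14 (adjusted p 1.43e-07). Of the other class 4 semaphorins, which mostly bind B-type plexins, Sema4b averaged 35.9 ± 2.20 FPKM at 6 h and 30.6 ± 0.50 FPKM at 0 h. Its call as higher (log2 change 0.23 ± 0.06, adjusted p 0.0108) was lost under both rescalings of the libraries, with an adjusted p up to 0.122. Sema4g fell to 1.04 ± 0.29 FPKM at 6 h, against 2.52 ± 0.64 FPKM at 0 h. Sema4a, Sema4c and Sema4d were not called, with means at 6 h of 2.42, 21.5 and 2.5 FPKM, against 2.73, 25.0 and 3.38 FPKM at 0 h.

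Sema7a, which is held by a lipid anchor and binds Plxnc1 and beta-1 integrins, was the most abundant guidance gene at 0 h and lies on chromosome 9 from 57940112 to 57962865 on the plus strand. It had 196, 225 and 205 FPKM at 0 h, 178, 170 and 198 FPKM at 1 h, and 46.1, 45.6 and 53.2 FPKM at 6 h. The 6 h libraries lay below all others, while those at 0 h and 1 h overlapped (log2 change at 6 h against 0 h -2.09 ± 0.09, adjusted p 9.87e-08). Sema5a, which carries thrombospondin repeats, came after Sema7a and Plxnc1 in level at 0 h and fell to 87.6 ± 3.68 FPKM at 6 h, against 162 ± 31.3 FPKM at 0 h (log2 change -0.86 ± 0.12, adjusted p 0.000182). Among the class 6 semaphorins, ligands of A-type plexins, Sema6d averaged 4.22 ± 0.10 FPKM at 0 h, 5.74 ± 0.17 FPKM at 1 h and 6.28 ± 0.45 FPKM at 6 h. It was called higher at 6 h (log2 change 0.48 ± 0.09, adjusted p 0.00106) and at 1 h (0.37 ± 0.09, adjusted p 0.0190), both against 0 h. Sema6d has 8 rows, and with its most abundant row in place of their sum the adjusted p was 0.160 at 6 h and 0.955 at 1 h. The call at 1 h was also lost on omitting the second or the third 0 h library or the first or the third 1 h library (adjusted p up to 0.0687). Sema6a fell to 1.01 ± 0.10 FPKM at 6 h, against 1.89 ± 0.44 FPKM at 0 h. Sema6b and Sema6c were not called against 0 h, and Sema6c averaged 4.48 ± 0.27 FPKM at 6 h, against 2.63 ± 0.81 FPKM at 1 h, which was called (log2 change 0.62 ± 0.16, adjusted p 0.00886).

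**Figure D2:**
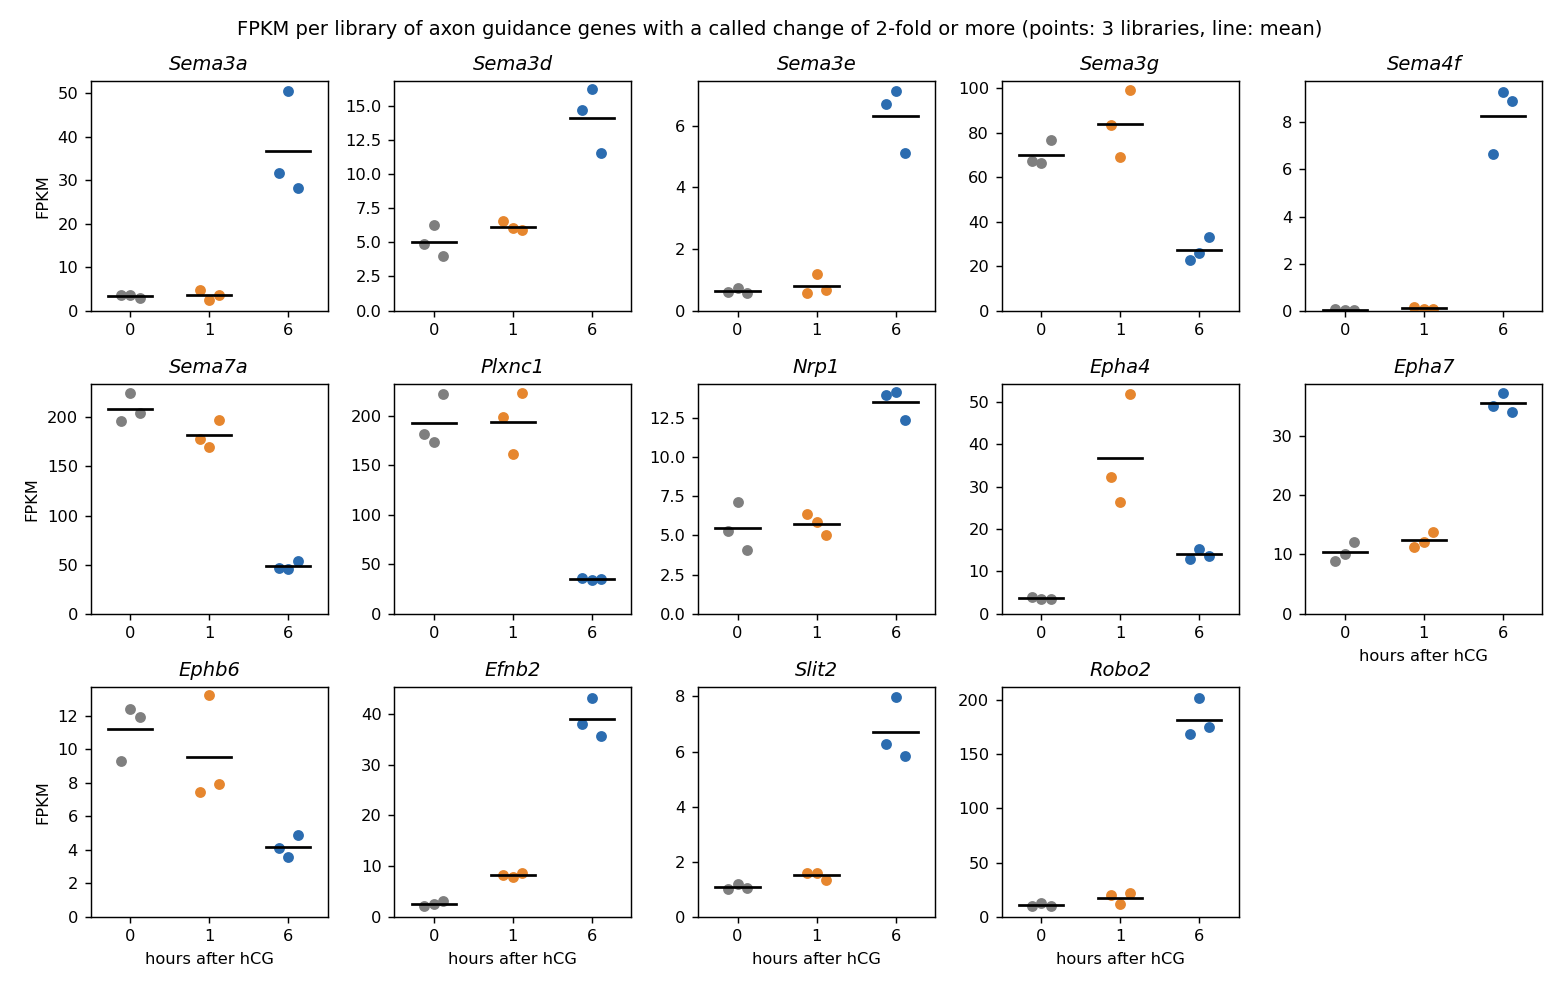
FPKM in each library of the 14 guidance genes with a called change of 2-fold or more in FPKM + 1 against 0 h, by hours after hCG (points, 3 libraries per time; line, mean; each panel has its own linear axis from 0). In 13 of the 14 panels the 6 h libraries lie all above or all below those at 0 h and 1 h, while Epha4 is highest at 1 h. The panels were picked for large called changes, so this separation largely follows from the choice. Of all 14535 genes tested, 4780 lie all above and 4660 all below at 6 h against 0 h. Efnb2 is also raised at 1 h, and 2 of 3 libraries of Robo2 at 1 h lie above those at 0 h.

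Of the plexins, the receptors of the semaphorins, 4 were called lower and 1 higher among the 8 tested at 6 h against 0 h. Over all genes tested, 27.9% were called lower and 28.8% higher, and 8 plexins are few. Plxnc1, the receptor of Sema7a, lies on chromosome 10 from 94790866 to 94944835 on the minus strand. It had 182, 173 and 222 FPKM at 0 h, 198, 161 and 222 FPKM at 1 h, and 36.0, 34.1 and 35.0 FPKM at 6 h. Its libraries at 6 h lay within a narrow range below all others, while those at 0 h and 1 h overlapped. The log2 change was -2.42 ± 0.12 at 6 h against 0 h (adjusted p 3.11e-07) and 0.01 ± 0.12 at 1 h against 0 h. The mean of Plxnc1 was thus 5.49-fold lower at 6 h than at 0 h, and that of its ligand Sema7a 4.32-fold lower.

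The other plexins moved less. Plxnb2 averaged 56.9 ± 4.12 FPKM at 6 h, against 79.0 ± 1.94 FPKM at 0 h, and Plxnb1, a receptor of Sema4d, averaged 23.3 ± 1.15 FPKM at 6 h, against 34.6 ± 1.90 FPKM at 0 h. Both B-type plexins tested fell, with log2 changes of -0.47 ± 0.07 and -0.55 ± 0.09. The A-type plexins, which transmit the signal of class 3 semaphorins bound to neuropilins, did not share a direction. Plxna2 fell to 9.23 ± 0.41 FPKM at 6 h, against 17.7 ± 4.52 FPKM at 0 h. Plxna1 was called higher, at 77.9 ± 0.81 FPKM at 6 h, against 63.0 ± 4.01 FPKM at 0 h (log2 change 0.30 ± 0.06, adjusted p 0.00292), a call lost under quantile normalization (adjusted p 0.0523). Exons of Plxna1 overlap 970 bases of an antisense gene, Gm26811, at a mean of 3.88 FPKM, and no label says whether reads kept their strand. Plxna3, Plxna4 and Plxnd1 were not called, with log2 changes of -0.11 ± 0.08, 0.04 ± 0.13 and 0.33 ± 0.13. The summed plexin level was 220 ± 3.20 FPKM at 6 h, against 403 ± 20.8 FPKM at 0 h, and Plxnc1 made up most of that difference.

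Nrp1, the neuropilin that binds Sema3a and also a co-receptor of vascular endothelial growth factor, had 5.26, 7.16 and 4.04 FPKM at 0 h, 6.37, 5.84 and 5.02 FPKM at 1 h, and 13.9, 14.1 and 12.4 FPKM at 6 h. All 6 h libraries lay above the others, with a log2 change of 1.18 ± 0.16 against 0 h (adjusted p 0.000177). Nrp2, which prefers Sema3f, averaged 3.18 ± 0.24 FPKM at 6 h and 3.28 ± 0.47 FPKM at 0 h, and the libraries overlapped (log2 change -0.03 ± 0.15). Endothelial cells also express Nrp1. Of their markers, Cdh5, Kdr, Flt1 and Cldn5 were called higher at 6 h with log2 changes of 0.48, 0.73, 0.54 and 0.71, while Pecam1 averaged 4.13 FPKM at 6 h and 3.30 FPKM at 0 h and was not called. Their part in the level of Nrp1 was not tested.

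**Figure D3:**
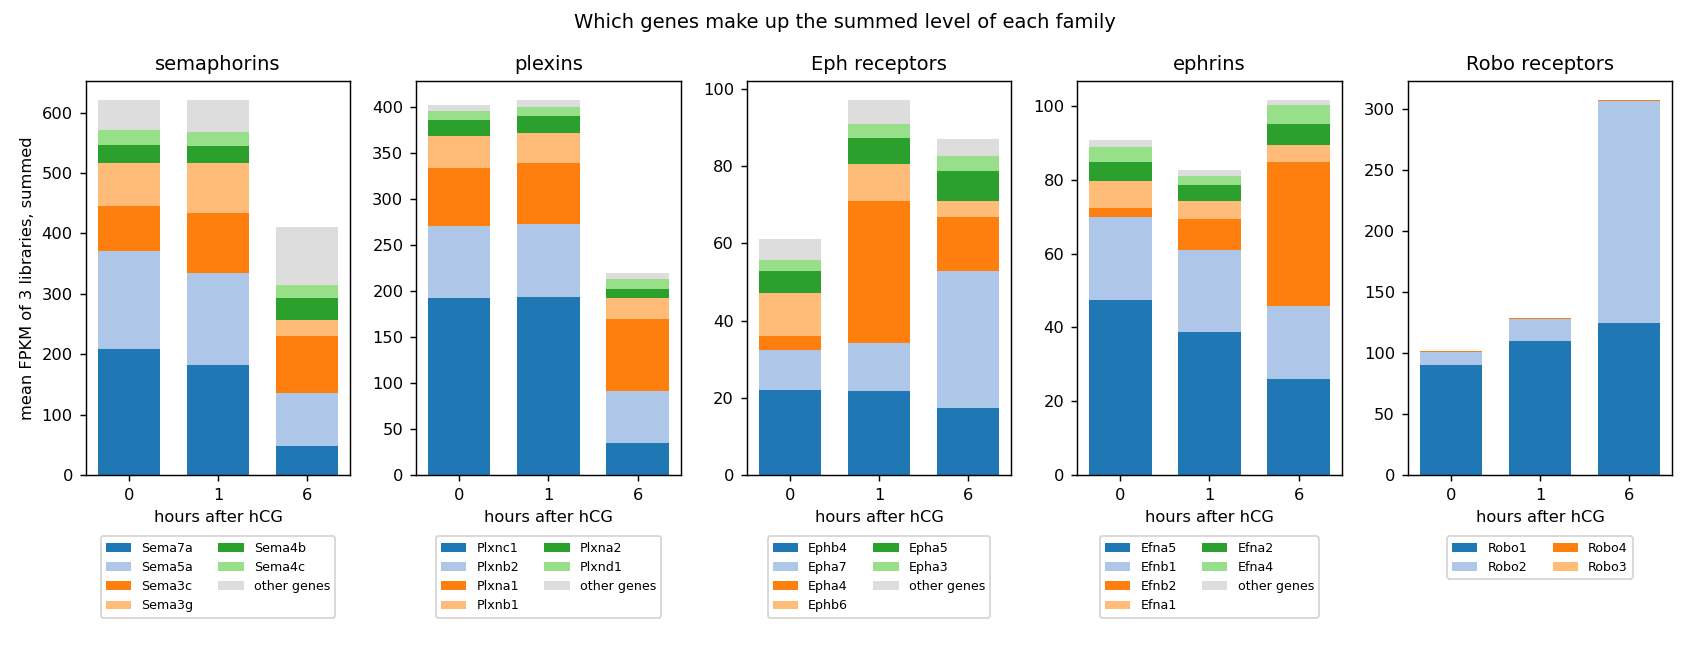
Mean FPKM of the members of 5 families stacked by hours after hCG (linear axes from 0; each bar sums the means of 3 libraries). The semaphorin and plexin bars are lower at 6 h than at 0 h mainly through Sema7a, Sema5a and Plxnc1; the Robo bar is higher at 6 h through Robo2, and Eph receptors and ephrins change in makeup through Epha4, Epha7 and Efnb2.

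EphA and EphB receptors gave different counts at 6 h. Of 6 EphA genes tested, 4 were called higher and none lower than at 0 h. Of 3 EphB genes tested, 3 were called lower and none higher. Over all genes tested, 28.8% were called higher and 27.9% lower at 6 h. The numbers of EphA and EphB genes are small, and the calls of Epha2, Epha5 and Ephb4 were lost in some settings, as given below. Summed levels were 64.1 ± 3.75 FPKM at 6 h, against 25.2 ± 2.0 FPKM at 0 h, for EphA genes, and 23.0 ± 1.26 FPKM at 6 h, against 35.9 ± 2.12 FPKM at 0 h, for EphB genes. Epha4 and Epha7 made up most of the rise in the EphA sum. The difference between the subfamilies was not tested as such.

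Epha4, a receptor that accepts ephrins of both types, was raised most at 1 h and stood lower again at 6 h. It lies on chromosome 1 from 77367185 to 77515088 on the minus strand. It had 3.95, 3.58 and 3.46 FPKM at 0 h, 32.4, 26.3 and 51.8 FPKM at 1 h, and 13, 15.3 and 13.7 FPKM at 6 h. The 3 times did not overlap, with 0 h lowest and 1 h highest, and 1 h replicate 3 was the highest library. The log2 change was 2.97 ± 0.20 at 1 h against 0 h (adjusted p 1.16e-05), 1.68 ± 0.20 at 6 h against 0 h (adjusted p 6.65e-05) and -1.28 ± 0.20 at 6 h against 1 h (adjusted p 0.000456). The gene has 4 rows in the tables, which name no transcripts. Its most abundant row held 62.6% of the level at 0 h, 40.5% at 1 h and 65.3% at 6 h, and the second held 28.8%, 54.7% and 31.3%. With the most abundant row alone, the difference between 6 h and 1 h was not called (adjusted p 0.0837).

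Epha7 is a receptor of A-type ephrins. It had 8.87, 10.03 and 12.1 FPKM at 0 h, 11.2, 12 and 13.8 FPKM at 1 h, and 35.1, 37.3 and 34.0 FPKM at 6 h. At 6 h all 3 libraries lay above the rest, with a log2 change against 0 h of 1.69 ± 0.11 (adjusted p 1.53e-06). Its 4 rows kept nearly the same shares, with 44.4% at 0 h, 45.6% at 1 h and 44.0% at 6 h in the most abundant row. Epha5 averaged 7.84 ± 0.52 FPKM at 6 h, against 5.54 ± 1.21 FPKM at 0 h, and its call as higher (log2 change 0.45 ± 0.13, adjusted p 0.0159) was lost with its most abundant row (adjusted p 0.721) and without 6 h replicate 2 (0.0581). Epha2 averaged 1.70 ± 0.22 FPKM at 6 h, against 0.999 ± 0.39 FPKM at 0 h (log2 change 0.45 ± 0.17, adjusted p 0.0406). The call of Epha2 was lost in 10 of 17 settings, among them omitting the first or the third library at 0 h or 1 h, or the first or the second at 6 h (adjusted p up to 0.144). Epha3 and Epha1 were not called, at 3.79 and 0.959 FPKM at 6 h and 2.99 and 0.789 FPKM at 0 h, and 236 exon bases of Epha1 overlap the abundant gene Zyx on the other strand.

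Among EphB receptors, Ephb4, the main partner of ephrin-B2 in vessels, had the highest mean of the Eph receptors over the 9 libraries, though Epha4 stood above it at 1 h and Epha7 at 6 h. Ephb4 had 22.3, 22.6 and 21.1 FPKM at 0 h, 20.8, 19.9 and 24.9 FPKM at 1 h, and 16.6, 16.7 and 18.5 FPKM at 6 h. The 6 h libraries lay just below all others (log2 change against 0 h -0.33 ± 0.09, adjusted p 0.00947), and the call was lost with the most abundant of its rows (adjusted p 0.0599). Ephb6, which lacks kinase activity, had 9.31, 12.4 and 11.9 FPKM at 0 h, 7.46, 13.2 and 7.91 FPKM at 1 h, and 4.08, 3.58 and 4.87 FPKM at 6 h. All 6 h libraries of Ephb6 lay below the others, and at 1 h replicate 2 stood above the other two libraries (log2 change at 6 h against 0 h -1.24 ± 0.20, adjusted p 0.000473). The second of its 2 rows held 3.32% of its level at 6 h, against 29.4% at 0 h. Ephb2 fell to 0.862 ± 0.36 FPKM at 6 h, against 2.14 ± 0.46 FPKM at 0 h (log2 change -0.76 ± 0.17, adjusted p 0.00405).

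Ephrins are the ligands of the Eph receptors. Efnb2, the transmembrane ligand ephrin-B2, was the only guidance gene called higher in all 3 comparisons. It lies on chromosome 8 from 8617434 to 8661242 on the minus strand. It had 2.19, 2.45 and 3.02 FPKM at 0 h, 8.28, 7.85 and 8.62 FPKM at 1 h, and 38.1, 43.2 and 35.7 FPKM at 6 h. The 3 times did not overlap, and each later time lay higher. The log2 change was 1.39 ± 0.11 at 1 h against 0 h (adjusted p 3.05e-05), 3.50 ± 0.11 at 6 h against 0 h (adjusted p 1.81e-08) and 2.11 ± 0.11 at 6 h against 1 h (adjusted p 4.59e-07). The other B-type ephrins were not called in any comparison: Efnb1 averaged 19.8 ± 0.85 FPKM at 6 h and 22.5 ± 4.47 FPKM at 0 h, and Efnb3 1.31 ± 0.20 and 1.65 ± 0.12 FPKM at these times.

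A-type ephrins are held by a lipid anchor. Efna5, the ephrin with the highest mean over the 9 libraries though below Efnb2 at 6 h, had 38.8, 51.5 and 52.2 FPKM at 0 h, 38.1, 30.5 and 47.9 FPKM at 1 h, and 25.5, 27.1 and 25.2 FPKM at 6 h. The 6 h libraries lay below all others, while 0 h and 1 h overlapped (log2 change at 6 h against 0 h -0.84 ± 0.16, adjusted p 0.00131). Efna4 was the only guidance gene called lower at 1 h, at 2.52 ± 0.78 FPKM, against 4.15 ± 0.27 FPKM at 0 h (log2 change -0.57 ± 0.15, adjusted p 0.0300), and it was 5.19 ± 0.44 FPKM at 6 h. That call was lost on leaving out any 0 h library or 1 h replicate 1 or 3 (adjusted p up to 0.106). Efna1 averaged 4.58 ± 0.77 FPKM at 6 h and 7.11 ± 0.45 FPKM at 0 h, without overlap and just short of a call (adjusted p 0.0514). In 6 of 18 settings Efna1 was called lower, with an adjusted p down to 0.00396. Efna2 averaged 5.76 ± 0.74 FPKM at 6 h, against 4.24 ± 0.58 FPKM at 1 h and 5.15 ± 0.44 FPKM at 0 h, and its call against 1 h (adjusted p 0.0275) was lost on omitting the first or the third 1 h library or the second or the third 6 h library (adjusted p up to 0.0929).

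The upstream bases of 3 members of this pathway are shown because Epha4 and Efnb2 carried the changes of the first hour and Epha2 alone held the complete cAMP response element TGACGTCA. Each is again the 120 bases before the RefSeq start, 5′ to 3′ on the gene's strand (GRCm38.p6): Epha4 at chr1:77515089-77515208 on the minus strand, Efnb2 at chr8:8661243-8661362 on the minus strand and Epha2 at chr4:141301101-141301220 on the plus strand. Capitals mark TGACGTCA, or TGACG and its reverse complement CGTCA where the longer form is absent.
Epha4: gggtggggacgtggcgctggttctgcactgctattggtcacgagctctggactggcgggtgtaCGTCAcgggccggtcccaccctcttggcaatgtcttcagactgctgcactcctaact
Efnb2: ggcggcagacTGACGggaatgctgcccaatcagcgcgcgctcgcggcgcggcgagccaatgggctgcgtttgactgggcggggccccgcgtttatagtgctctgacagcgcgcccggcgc
Epha2: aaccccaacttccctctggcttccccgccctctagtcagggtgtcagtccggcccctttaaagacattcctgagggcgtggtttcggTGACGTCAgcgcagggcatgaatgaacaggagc
The cAMP response element of Epha2 begins 33 bases before the start, the shorter core of Epha4 57 bases and that of Efnb2 110 bases before it.

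Motifs were searched on both strands in the RefSeq windows from 250 bases before to 50 bases after each start, which covered 60 of the 69 genes. The cAMP response element TGACGTCA was in 2.03% of all 27025 genes with a window and in 1 of the 60 guidance genes. The AP-1 site TGANTCA was in 8.97% of all genes and in 3 guidance genes, none of them called at 6 h against 0 h. The RUNX core TGTGGT was in 18.9% of all genes and in 10 guidance genes. AAAGGTCA, the element bound by NR4A receptors, was in 1.70% of all genes and in no guidance gene. The shorter core TGACG, which TGACGTCA contains, was added after the sequences had been read. It was in 23.0% of all genes with a window, in 4 of the 17 genes called higher at 6 h that had a window, and in 2 of the 12 called lower. A match is a description of letters and no evidence of binding.

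Slits and Robo receptors form a ligand and receptor pair. Robo2 had the largest log2 change of FPKM + 1 among the guidance genes tested and was the most abundant of them at 6 h. The order depends on the pseudocount: with 0.1 in place of 1, Sema4f, near 0 at 0 h, reached a log2 change of 5.95 and Robo2 4.06. It lies on chromosome 16 from 73891839 to 74411825 on the minus strand. It had 10.3, 12.4 and 9.79 FPKM at 0 h, 19.7, 11.6 and 21.9 FPKM at 1 h, and 168, 202 and 176 FPKM at 6 h. The 6 h libraries lay far above all others, whereas 1 h replicate 2 lay within the range of 0 h and the other two 1 h libraries above it. The log2 change was 3.95 ± 0.19 at 6 h against 0 h (adjusted p 2.57e-07), a 16.8-fold ratio of means. At 1 h against 0 h it was 0.62 ± 0.19 and not called (adjusted p 0.0559), and it was called without 1 h replicate 2 (log2 change 0.89, adjusted p 0.00101) or with the most abundant row (1.13, adjusted p 0.00610). All 3 rows of Robo2 were higher at 6 h, with means of 86.0, 68.8 and 27.3 FPKM at 6 h, against 5.5, 4.14 and 1.19 FPKM at 0 h. At 1 h their means were 13.6, 2.96 and 1.15 FPKM, and only the most abundant row was above its level at 0 h.

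Robo1, its neighbour on chromosome 16 within 2.10 Mb, was abundant throughout. Robo1 had 89.1, 85.6 and 96.3 FPKM at 0 h, 108, 91.3 and 131 FPKM at 1 h, and 127, 130 and 117 FPKM at 6 h. The 6 h libraries lay above those of 0 h and overlapped those of 1 h (log2 change at 6 h against 0 h 0.46 ± 0.12, adjusted p 0.00697). Slit2, a ligand of both receptors, had 1.01, 1.18 and 1.05 FPKM at 0 h, 1.58, 1.60 and 1.35 FPKM at 1 h, and 6.28, 7.99 and 5.85 FPKM at 6 h. The 3 times of Slit2 did not overlap, but the step at 1 h was not called (log2 change 0.27 ± 0.13, adjusted p 0.178), whereas that at 6 h against 0 h was (1.88 ± 0.13, adjusted p 1.62e-06). Slit3 had 4.62, 5.85 and 4.58 FPKM at 0 h, 5.56, 7.34 and 5.06 FPKM at 1 h, and 3.51, 4.55 and 4.58 FPKM at 6 h. The libraries at 6 h and 0 h overlapped and the difference was not called (log2 change -0.21 ± 0.15). Its call as lower at 6 h against 1 h (-0.42 ± 0.15, adjusted p 0.0393) was lost on omitting the first or the second library of either time (adjusted p up to 0.132).

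Ntn4, a netrin that binds laminin in basement membranes, had 1.93, 3.31 and 3.16 FPKM at 0 h, 2.68, 5.93 and 1.36 FPKM at 1 h, and 1.31, 0.972 and 2.21 FPKM at 6 h. The 3 times overlapped and no comparison was called, with a log2 change at 6 h against 0 h of -0.61 ± 0.35. Unc5b rose to 1.93 ± 0.05 FPKM at 6 h, against 1.21 ± 0.22 FPKM at 0 h (log2 change 0.41 ± 0.11, adjusted p 0.0106), and Unc5c averaged 2.43 ± 0.27 FPKM at 6 h and 2.83 ± 0.16 FPKM at 0 h. Dcc and Neo1, netrin receptors outside the selection that are named here after their values were seen, averaged 0.218 and 28.7 FPKM at 6 h, against 0.967 and 40.5 FPKM at 0 h. Neo1 was called lower (log2 change -0.48, adjusted p 0.000612), and Dcc was below the level for testing. Unc50 had 36.3, 34.2 and 35.2 FPKM at 0 h, 31.1, 28.7 and 39.6 FPKM at 1 h, and 30.6, 30.7 and 31.2 FPKM at 6 h. Its libraries at 6 h lay below those at 0 h, but the difference was not called (log2 change -0.19 ± 0.10, adjusted p 0.148). In 4 of 18 settings Unc50 was called lower, with an adjusted p of 0.00995 under quantile normalization.

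Another 16 guidance genes stayed below the level for testing, with a highest value in any library between 0.0228 and 1.45 FPKM. They were Sema5b, Plxnb3, Epha6, Epha8, Epha10, Ephb1, Ephb3, Efna3, Slit1, Robo3, Robo4, Ntn1, Ntn5, Unc5a, Unc5cl and Unc5d. Robo4, the Robo receptor of endothelium, averaged 0.749 FPKM at 6 h and 0.639 FPKM at 0 h. Unc5d averaged 0.660 FPKM at 6 h, against 0.0632 FPKM at 0 h, and Ntn5 0.783 FPKM at 6 h, against 0.0322 FPKM at 0 h. Epha8 averaged 0.229 FPKM at 6 h, against 0.817 FPKM at 0 h, and Ntn1, the founding netrin, 1.11 FPKM at 6 h, against 0.626 FPKM at 0 h. At 6 h against 0 h, 4780 of the 14535 genes tested lay all above and 4660 all below. The libraries of Unc5d, Ntn5, Epha8 and Ntn1 likewise did not overlap between these times. Without the filter on low values they were called, with log2 changes of 0.64 for Unc5d, 0.79 for Ntn5, -0.56 for Epha8 and 0.36 for Ntn1, and so was Unc5a (0.19, adjusted p 0.0300). Exons of Ntn5 share 519 bases with Sec1 on the other strand.

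**Figure D4:**
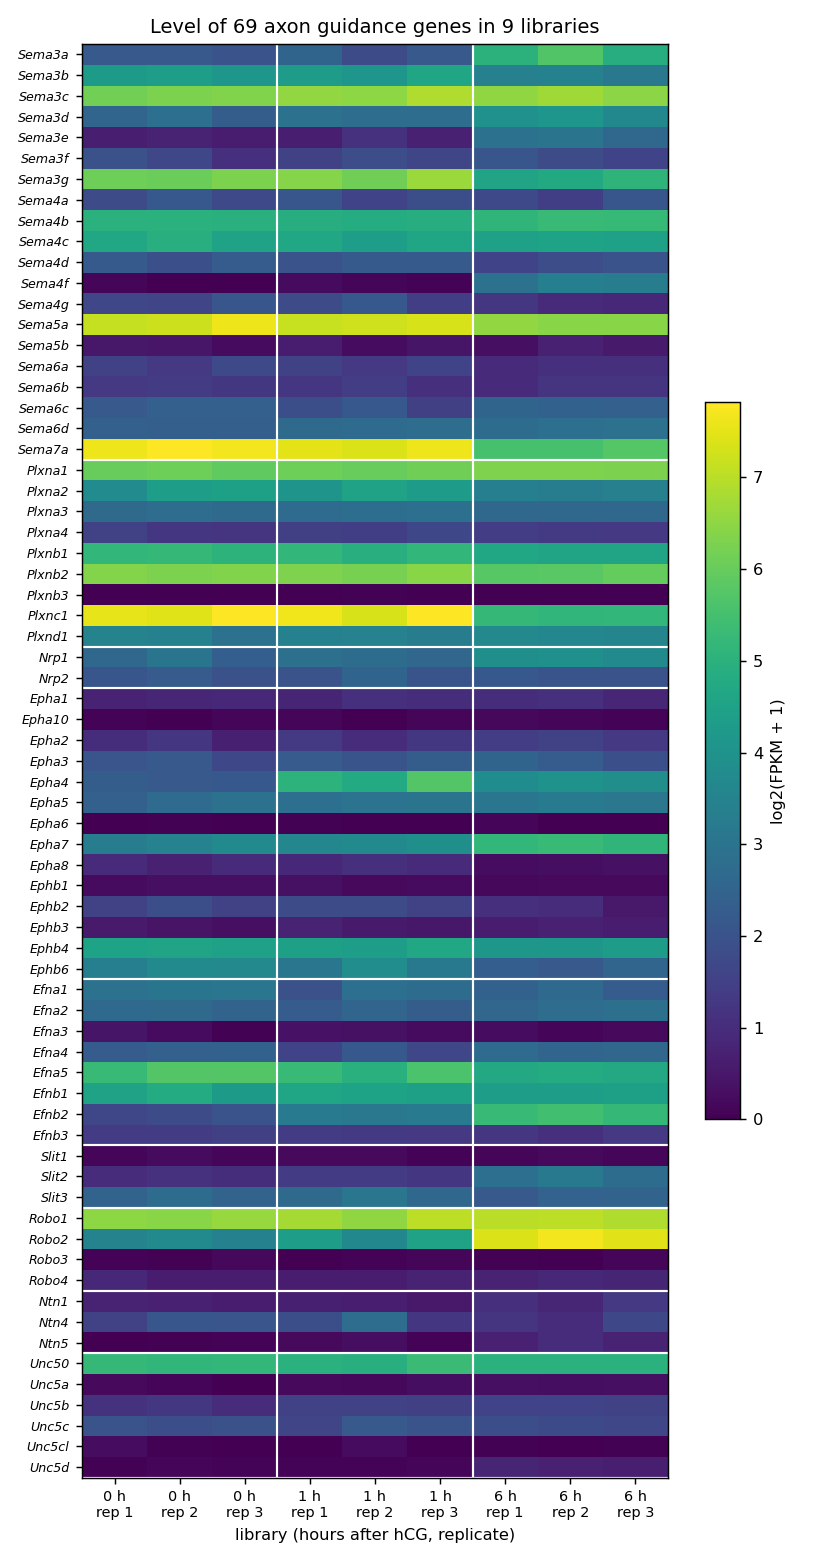
Level of the 69 guidance genes in each of the 9 libraries as log2(FPKM + 1) (colour), grouped by family (white lines) and by hours after hCG. Sema7a, Plxnc1 and Sema5a are brightest at 0 h and 1 h, Robo2 and Robo1 at 6 h, and 16 genes stay near the dark end in all libraries.

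The order of levels changed with time. At 0 h Sema7a (209 ± 14.6 FPKM), Plxnc1 (192 ± 26.1 FPKM) and Sema5a (162 ± 31.3 FPKM) led, and the libraries of neighbours in this order overlapped, while the next gene, Robo1, was at 90.3 ± 5.48 FPKM. At 1 h Plxnc1 (194 ± 31.0 FPKM) and Sema7a (182 ± 14.2 FPKM) overlapped at the top. At 6 h Robo2 (182 ± 17.9 FPKM) stood above Robo1 (125 ± 6.87 FPKM) without overlap, followed by Sema3c (94 ± 9.28 FPKM) and Sema5a (87.6 ± 3.68 FPKM), which overlapped. FPKM is scaled to length, but differences in transcript rows between genes still bear on this order. The sum over all 69 genes was 1336 ± 67.3 FPKM at 0 h, 1397 ± 141 FPKM at 1 h and 1195 ± 49.9 FPKM at 6 h.

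The wider pathway was read from 4 lists of partner genes, 119 genes in all, of which 97 were tested. The lists include signalling genes, such as Abl1 and Sos2, and not binding partners alone. At 6 h 46 were called higher and 22 lower than at 0 h, with a median log2 change of 0.26, beside -0.004 over all genes. These are 47.4% and 22.7% of the partners tested, beside 28.8% and 27.9% of all genes. Partners of Slits and Robo receptors had 11 higher and 4 lower of 21 tested, partners of semaphorins and neuropilins 15 and 6 of 33, partners of Ephs and ephrins 14 and 6 of 26, and partners of netrins and repulsive guidance molecules 6 and 6 of 17. At 1 h 17 were higher and 1 lower than at 0 h (17.5% and 1.03%, beside 9.68% and 5.98% of all genes). At 6 h against 1 h 39 were higher and 24 lower (40.2% and 24.7%, beside 26.7% and 26.9% of all genes). With FPKM scaled to the mean sum, the partner counts were 41 higher and 23 lower at 6 h against 0 h, and 11 higher and 8 lower at 1 h against 0 h, where the median of the partners was -0.09. The lists were not tested as sets, and Kdr and Flt1 stand both among the partners and among the endothelial markers.

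Among the partners of semaphorins, Rnd3, a constitutively active small GTPase that binds plexins, averaged 3.97 ± 0.51 FPKM at 0 h, 11.1 ± 0.99 FPKM at 1 h and 111 ± 10.4 FPKM at 6 h, and was called higher in all 3 comparisons. Met, the receptor of hepatocyte growth factor, which can associate with plexins, rose to 9.81 ± 1.16 FPKM at 6 h, against 0.828 ± 0.41 FPKM at 0 h (log2 change 2.58 ± 0.17). Nrcam, a cell adhesion molecule in Sema3 receptor complexes, rose to 16.9 ± 1.21 FPKM at 6 h, against 3.85 ± 2.13 FPKM at 0 h. Sdc1, a heparan sulfate proteoglycan of the kind that Slits bind, rose to 656 ± 58.2 FPKM at 6 h, against 89.5 ± 26.1 FPKM at 0 h (log2 change 2.90 ± 0.20). Srgap1, a GTPase-activating protein that binds Robo receptors, rose to 10.9 ± 0.28 FPKM at 6 h, against 1.54 ± 0.03 FPKM at 0 h, and Cables1 fell to 21.6 ± 11.1 FPKM at 6 h, against 51.7 ± 10.3 FPKM at 0 h.

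Partners of Ephs and ephrins with the largest calls at 6 h were the exchange factors Vav2 and Tiam1 (log2 changes 1.39 and 1.13) and the ephrin-B scaffold Sdcbp (1.17), all higher than at 0 h. Among netrin and repulsive guidance partners the netrin G1 gene Ntng1 (-1.64), Ablim1 (-0.92) and Dock1 (-0.88) were lower. At 1 h the largest call was Flrt3, an adhesion protein that binds Unc5 receptors and Robo1. Flrt3 averaged 3.93 ± 0.35 FPKM at 0 h, 33.1 ± 2.81 FPKM at 1 h and 2.74 ± 0.22 FPKM at 6 h, with a log2 change of 2.79 ± 0.10 at 1 h against 0 h and -3.19 ± 0.10 at 6 h against 1 h. Other partners called at 1 h against 0 h included Vegfa (0.83), Yes1 (0.81), Sdcbp (0.64), Sos2 (0.60) and Flrt2 (0.59), all higher, and Abl1 (-0.33), the single gene called lower.

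**Figure D5:**
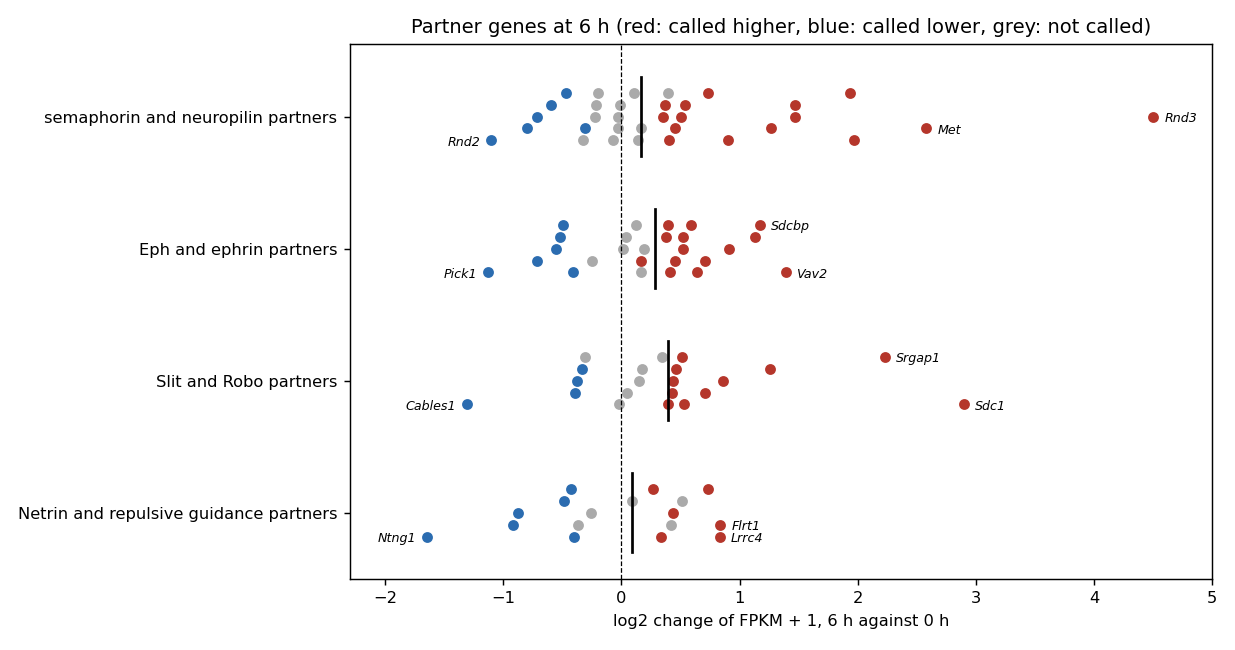
Log2 change of FPKM + 1 at 6 h against 0 h of the 97 tested partner genes in 4 lists (points; red called higher, blue called lower, grey not called; bar, median of the list; dashed line, median of all genes tested). All 4 list medians lie right of the dashed line, from 0.09 for netrin and repulsive guidance partners to 0.39 for Slit and Robo partners, and Rnd3, Sdc1 and Met lie farthest to the right.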

How the data were processed

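The deposited tables give FPKM per row for 54759 rows in each of 9 libraries. HISAT2 2.0.5 and mm10 are named per the submitters' processing notes, while the sources used here do not give the program, annotation and filters behind the authors' FPKM. Trizol was used for the RNA and an Illumina TruSeq kit for the libraries, per the labels' protocols. Each library had 9364 to 9682 rows with values over 0 and under 0.001 FPKM, which do not resolve into whole reads, and depth is unknown.

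Rows were summed per gene identifier; the 69 guidance genes had 195 rows, and 23 of them had 1 row. Log2(FPKM + 1) was fitted by limma 3.58.1 (R 4.3.3) with an intensity trend, over the 14535 genes that reached 1 FPKM in at least 3 libraries. A single fit of 3 group means over 9 libraries had 6 residual degrees of freedom and no covariate, and p-values were adjusted by Benjamini-Hochberg over all genes tested. The fit was tested on simulated data. Motif matching used Python 3.11.15 and pandas 2.3.3.

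Values in all libraries are given for guidance genes called against 0 h with a change of 2-fold or more in FPKM + 1 and a mean of at least 1 FPKM, and for the most abundant member of each family. From each partner list at most the 3 largest calls per comparison were eligible for naming. The families and partner lists were chosen with earlier results of these data known, although the rule that selects members uses symbols only. A list of downstream effectors and 1 marker gene are not reported here.

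Alternatives were 2 rescalings of the libraries, another pseudocount (0.1), 2 other filters, the most abundant row per gene, 2 groups only, no intensity trend, a replicate block and leaving out each library.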

Additional observations from a re-analysis of the deposited data

How the results depend on the processing

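All 14 changes of 2-fold or more in FPKM + 1 at 6 h against 0 h and both at 1 h against 0 h kept their calls in each of the 18 settings run, and at 6 h against 1 h 13 of 14 did, Epha4 being the exception. Of all called guidance genes, some of which passed the filter in 16 or 17 settings, those keeping the call wherever they were tested were 25 of 32 at 6 h against 0 h, 2 of 5 at 1 h against 0 h and 24 of 30 at 6 h against 1 h. The counts at 1 h against 0 h were small and moved: called higher were 4, but 2 with FPKM scaled to the mean sum and 2 to 6 on leaving out a library; 2 were left on omitting the second or the third 0 h library or the first or the third 1 h library, and 6 were called without 1 h replicate 2. Called lower was 1, but 5 with FPKM scaled to the mean sum, 4 with quantile normalization, 0 without the filter on low values, 0 with a floor of 5 FPKM in at least 3 libraries, 0 with only the 2 groups compared, and 0 to 2 on leaving out a library. Efna4, the gene called lower, did not pass that floor and was not tested there. Scaling to the mean sum shifted the median of all genes by -0.14 at 1 h and -0.08 at 6 h, both against 0 h, and by 0.06 at 6 h against 1 h. Among the partner genes at 1 h against 0 h, 17 were called higher, but 11 with FPKM scaled to the mean sum, and 12 to 15 on leaving out a library. Called lower was 1, but 8 with FPKM scaled to the mean sum, 6 with quantile normalization, 0 with the most abundant row of each gene, 3 with the replicate block, and 0 to 3 on leaving out a library. The settings for partner genes were added after seeing the data. Some guidance genes not called at 6 h against 0 h in the analysis reported gained a call elsewhere. Efna1 did so in 6 of 18 settings, Unc50 in 4 of 18 and Sema4d in 3 of 17. Sema4c and Plxnd1 did so in 2 of 18 each, Efna4 and Ntn4 in 1 of 17 each, and Efnb1 in 1 of 18. Unc50 at 6 h against 1 h reversed with its most abundant row, at a log2 change of 0.33. The cause was not tested.

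With the replicate number as a block, 18 guidance genes were called higher and 15 lower at 6 h against 0 h, 3 and 1 at 1 h against 0 h, and 14 and 16 at 6 h against 1 h. Deviations of same-numbered libraries correlated at -0.08 to 0.15, and those of differently numbered libraries at -0.15 to 0.09. The ranges overlapped, though the highest values were those of same-numbered pairs. Among same-numbered pairs only that of replicate 2 at 1 h and 6 h was negative, whereas differently numbered pairs had both signs. No label names a pairing, so the numbers were not taken as one in the fit reported. Whether they mark a shared batch was not tested.

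The limits are 3 libraries per time, an unknown depth, rows without transcript names and an unstated strand, which touches genes with exons opposite another gene, Epha1, Plxna1 and Ntn5 among them.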
